A study of Mus musculus with 2 samples.

Results

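The 8 genes described here encode pore-forming alpha1 subunits of voltage-gated calcium channels: Cacna1a, Cacna1b, Cacna1c, Cacna1d, Cacna1e, Cacna1g, Cacna1h and Cacna1i. They were taken by name after gene identifiers were matched to mouse symbols, and all 8 were found among the 43346 genes of the tables. They were measured in pyramidal neurons of cortical layer 5, large excitatory cells that send the output of the cortex to other brain areas. The tissue was wild-type, male and 8 months of age. There were 2 libraries of 1 group, each from a pool of 50 laser-captured cells, and no second condition. The labels call them biological replicates 1 and 2 but give the same donor for each, so the spread between them may be technical. The strain is named B6NCrl, C57Bl5 and C57Bl6 in different label fields, and an antibody field reads Control. With 1 group no test between conditions was possible, and values are given per library, with the SD over 2 libraries.

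A voltage-gated calcium channel opens when the membrane depolarises and lets calcium into the cell. Its alpha1 subunit holds 4 homologous repeats around one pore, and each repeat gives one acidic residue to the ring that selects calcium. Cav1 channels carry the L-type current, which couples activity to gene expression. Cav2 channels carry the P/Q-type, N-type and R-type currents, which trigger transmitter release and shape dendritic signals. Cav3 channels carry the T-type current, which opens near the resting potential and supports burst firing.

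The ring of acidic residues separates Cav3 from Cav1 and Cav2 in the coding sequence itself, so the codons of the pore are shown first. In the protein-coding transcript with the highest level of each gene, a search found exactly 4 pore-loop codon windows. The search pattern accepted only glutamate or aspartate at the selecting position and constrained a few other residues. That each selecting codon was acidic, and part of the likeness between windows, thus followed from the search. Which acidic residue stood there was left free. The selecting codon was a glutamate codon in repeats 1 and 2 of all 8 genes. In repeats 3 and 4 it was a glutamate codon in 5 genes, all of Cav1 and Cav2, and an aspartate codon in 3 genes, all of Cav3. Over the 4 windows, 144 bases in all, the 3 Cav3 genes matched each other at 82.6% to 88.2% of bases and matched Cav1 or Cav2 genes at 56.9% to 67.4%. The Cav1 and Cav2 genes matched each other at 77.8% to 84.7%. The windows of repeat 3 (36 bases, GENCODE M21 transcripts on GRCm38, 5′ to 3′) are given with the selecting codon in capitals. Where the interval is longer than 36 bases, an intron splits the window.
Cacna1a, chr8:84581320-84583562, plus strand: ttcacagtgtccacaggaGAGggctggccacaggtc
Cacna1b, chr2:24650625-24651112, minus strand: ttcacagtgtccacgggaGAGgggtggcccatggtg
Cacna1c, chr6:118654452-118656144, minus strand: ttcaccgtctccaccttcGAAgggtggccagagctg
Cacna1d, chr14:30099240-30100728, minus strand: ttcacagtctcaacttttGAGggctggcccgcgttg
Cacna1e, chr1:154443999-154444903, minus strand: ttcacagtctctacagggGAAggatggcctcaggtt
Cacna1g, chr11:94426456-94426491, minus strand: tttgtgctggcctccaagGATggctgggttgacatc
Cacna1h, chr17:25383493-25383528, minus strand: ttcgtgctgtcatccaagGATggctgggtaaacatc
Cacna1i, chr15:80376789-80376824, plus strand: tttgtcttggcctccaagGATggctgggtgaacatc

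Replicate 1 held 24171434 estimated reads and replicate 2 held 27946180, of which spike-in RNAs took 4.28% and 5.32%. The labelled cell type was checked on marker genes. All 10 glutamatergic markers and all 9 layer 5 markers reached 1 TPM (a level corrected for transcript length and scaled to the same total in each library) in each library, led by Nrgn and Pcp4. Markers of other cells were present too, and 16 and 14 of 17 GABAergic interneuron markers reached 1 TPM, led by Cck. All 9 astrocyte markers, led by Aldoc, and all 9 oligodendrocyte markers, led by Mbp, did so in each library. Cck is known to be expressed by pyramidal neurons too, but some interneuron genes were also high. Sst stood at 2506 TPM in replicate 1, against 844 TPM in replicate 2. Pvalb stood at 508 and 338 TPM and Gad1 at 143 and 94.8 TPM. Each lay above the 31.9 and 49.3 TPM of Slc17a7, the vesicular glutamate transporter of cortical pyramidal neurons. Others of the GABAergic list lay below Slc17a7 in each library, such as Slc32a1 at 3.63 and 2.66 TPM and Lhx6 at 5.02 and 5.29 TPM. Glutamatergic markers also lay on each side of it, with Nrgn at 335 and 521 TPM and Neurod1 at 3.02 and 6.28 TPM. How much of any value below came from RNA of other cells was not tested. In a pool, fewer cells of a type and less RNA per cell cannot be told apart.

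All 8 genes were detected in each library, but at low to middling levels. Their median was 5.11 TPM in replicate 1 and 5.01 TPM in replicate 2, against 2.02 and 1.84 TPM over all 21474 protein-coding genes. Their median percentile among those genes was 60.4 and 60.5, and 55.8% and 54.4% of the coding genes reached 1 TPM. The 8 genes summed to 65.6 and 56.2 TPM and to 10549 and 8300 reads. Cacna1e and Cacna1a, both of Cav2, lay above the other 6 genes in each library.

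**Figure D1:**
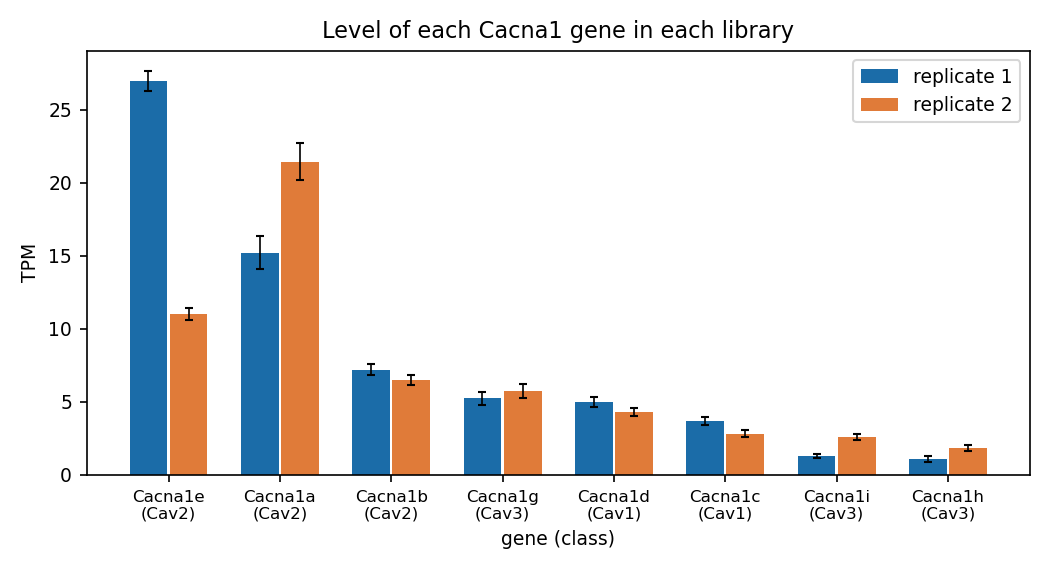
Bars show TPM of each gene in replicate 1 (left) and replicate 2 (right), in order of mean TPM, with 95% exact Poisson intervals of the read count that cover counting error only. Cacna1e stood at 26.9 and 11.0 TPM and Cacna1a at 15.2 and 21.4 TPM, and none of the other 6 genes exceeded 7.20 TPM.

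Cav2 genes held the highest levels. Cacna1e (chromosome 1, 154390731 to 154884501, minus strand), whose protein carries the R-type current, stood at 26.9 TPM in replicate 1, from 5858 reads. In replicate 2 it stood at 11.0 TPM, from 3012 reads. The mean was 19.0 ± 11.3 TPM (SD, n = 2), the widest spread of the 8 genes in TPM. Its percentile among coding genes was 83.0 and 71.1.

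Cacna1a (chromosome 8, 84388440 to 84640246, plus strand), the gene of P/Q-type channels at fast synapses, differed the other way. It stood at 15.2 TPM in replicate 1, from 737 reads, and at 21.4 TPM in replicate 2, from 1134 reads. The mean was 18.3 ± 4.42 TPM (SD, n = 2), so the order of Cacna1e and Cacna1a reversed between the libraries. In replicate 1, the library with transcript values, most of this TPM lay in short noncoding transcripts of the gene, described below.

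Cacna1b (chromosome 2, 24603887 to 24763152, minus strand), the gene of N-type channels that also drive transmitter release, differed little between the libraries. It stood at 7.20 TPM in replicate 1, from 1375 reads, and at 6.47 TPM in replicate 2, from 1386 reads. By reads it lay above Cacna1a in each library, and by TPM below it.

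The Cav1 genes were lower. Cacna1d (chromosome 14, 30039939 to 30491455, minus strand), whose L-type channel opens at less depolarised voltages than that of Cacna1c, had 4.99 TPM (878 reads) in replicate 1, against 4.31 TPM (845 reads) in replicate 2. Cacna1c (chromosome 6, 118587240 to 119196418, minus strand), the gene of the main L-type channel of heart and brain, had 3.67 TPM (744 reads) in replicate 1, against 2.82 TPM (536 reads) in replicate 2. Cacna1d exceeded Cacna1c in TPM in each library. It also did so in reads.

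The remaining Cav1 genes are known from skeletal muscle (Cacna1s) and retina (Cacna1f), and they served as a background within the family. Cacna1s had no reads in replicate 1, where 3 reads would be worth 0.037 TPM, and 38 reads or 1.23 TPM in replicate 2. Against that floor of 3 reads per library it was at least 11.3-fold lower in replicate 1, taking the 38 reads as exact. With their counting error, the 95% exact interval of its ratio, replicate 1 over replicate 2, reached up to 0.114. Cacna1f had 2 reads in replicate 1 and 48 reads in replicate 2, at 0.02 and 0.37 TPM. The Cacna1f ratio of CPM (reads scaled to library size), replicate 1 over replicate 2, was 0.047 with a 95% exact counting interval of 0.0055 to 0.178. In replicate 2 the effective length behind the Cacna1s value was 1381 bases, against 4083 bases in replicate 1. The counting interval of Cacna1s in replicate 2, 0.870 to 1.69 TPM, overlapped that of Cacna1h, the lowest of the 8, at 1.62 to 2.06 TPM.

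The Cav3 genes differed among themselves. Cacna1g (chromosome 11, 94408391 to 94474198, minus strand), a T-type gene best known from thalamic relay neurons, had 5.23 TPM (562 reads) in replicate 1, against 5.71 TPM (556 reads) in replicate 2. Cacna1i (chromosome 15, 80287238 to 80398279, plus strand), a T-type gene known from the thalamic reticular nucleus, had 1.29 TPM (249 reads) in replicate 1, against 2.61 TPM (565 reads) in replicate 2. Cacna1h (chromosome 17, 25374285 to 25433783, minus strand), a T-type gene also known from sensory neurons, had 1.08 TPM (147 reads) in replicate 1, against 1.83 TPM (266 reads) in replicate 2. Cacna1i and Cacna1h were each lower in replicate 1, and by TPM each stood below the other 6 genes in each library. By reads this did not hold for Cacna1i in replicate 2, where its 565 reads exceeded those of Cacna1g (556) and Cacna1c (536).

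In order of mean TPM the genes ran Cacna1e, Cacna1a, Cacna1b, Cacna1g, Cacna1d, Cacna1c, Cacna1i and Cacna1h. Among neighbours, the ranges over the libraries overlapped for Cacna1e with Cacna1a and for Cacna1i with Cacna1h, so neither pair was separated by level over the libraries. Within libraries, the order of Cacna1e and Cacna1a reversed, whereas Cacna1i exceeded Cacna1h in each. Their counting intervals were 1.13 to 1.46 and 0.915 to 1.27 TPM in replicate 1, which overlapped, and 2.40 to 2.83 and 1.62 to 2.06 TPM in replicate 2, which did not. The other 5 neighbours did not overlap, from 15.2 TPM for the lower Cacna1a library against 7.20 for the higher Cacna1b library down to 2.82 for Cacna1c against 2.61 for Cacna1i. For Cacna1g and Cacna1d the gap was small, 5.23 against 4.99 TPM. Their counting intervals in replicate 1, 4.81 to 5.68 and 4.66 to 5.33 TPM, overlapped. In replicate 2 those of Cacna1c and Cacna1i, 2.59 to 3.07 and 2.40 to 2.83 TPM, overlapped too. So did those of Cacna1b and Cacna1g in replicate 2, 6.13 to 6.82 and 5.25 to 6.20 TPM.

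By class, Cav2 held most of the summed level. It took 75.2% in replicate 1 and 69.3% in replicate 2, or 72.2% ± 4.21 (SD, n = 2). Cav1 took 13.2% and 12.7%, and Cav3 took 11.6% and 18.1%. The shares of Cav1 and Cav3 were closer together than the spread of Cav3, at 12.9% ± 0.37 and 14.8% ± 4.58. Within Cav2 the make-up differed between the pools, since Cacna1e alone was 41.1% of the summed level in replicate 1 and 19.6% in replicate 2, and Cacna1a was 23.1% and 38.1%.

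**Figure D2:**
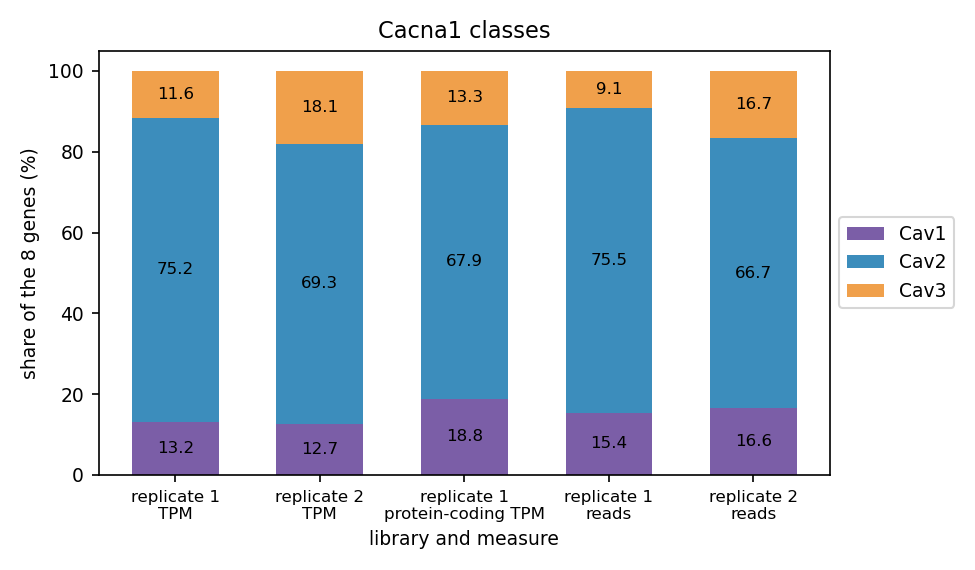
Stacked bars show the share of the 8 genes held by Cav1, Cav2 and Cav3, in percent, by TPM in each library, by TPM of protein-coding transcripts in replicate 1 and by reads in each library. Cav2 lies between 66.7% and 75.5% in all 5 bars.

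Transcript values, used for replicate 1, changed the picture for Cacna1a. Its leading transcript was Cacna1a-207, annotated as a retained intron, 1153 bases long, with 32.1% of the TPM of the gene. The next was Cacna1a-206, another retained-intron transcript, with 20.4%. The one full-length protein-coding transcript with reads, Cacna1a-201 with 47 exons and 7926 bases, held 18.8% of the TPM, or 2.86 of 15.2 TPM. The same transcript held 60.8% of the reads, 448 of 737. The 5 retained-intron transcripts together held 66.4% of the TPM from 220 reads. TPM divides reads by length, so a short transcript reaches a given TPM with few reads.

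Only 4.49% of 11946 protein-coding genes at 1 TPM or more in replicate 1 had a protein-coding share as low as that of Cacna1a, and 13.0% had a share under 50%. Cacna1a was the 1 member of 8 under 50%, a count near that share of all genes and so no result about the members. Of the 9 sodium channel pore genes, which also encode 4-repeat pores, 5 reached 1 TPM in replicate 1. Their protein-coding shares were 97.6% (Scn1a), 98.3% (Scn2a), 98.7% (Scn3a), 100% (Scn8a) and 37.2% (Scn9a, at 1.48 TPM).

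The leading pair of retained-intron transcripts of Cacna1a lay in different parts of the gene. Cacna1a-207 ran from 213 to 225 kb downstream of the gene start and Cacna1a-206 from the start to 131 kb. Of the 1153 bases of Cacna1a-207, 630 lay outside the exons of protein-coding transcripts, in 1 run, and of the 1150 bases of Cacna1a-206, 359 did. The edges where these transcripts read through a splice donor into the intron are shown with the 30 exon bases in capitals and the first 30 intron bases in lower case (GRCm38, 5′ to 3′). In each the intron opens with gt, and all 30 exon bases are coding sequence. The matching edge of the leading retained-intron transcript of Cacna1e is given beside them.
Cacna1a-207, chr8:84612383-84612442, plus strand: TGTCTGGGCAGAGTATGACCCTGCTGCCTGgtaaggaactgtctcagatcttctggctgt
Cacna1a-206, chr8:84518734-84518793, plus strand: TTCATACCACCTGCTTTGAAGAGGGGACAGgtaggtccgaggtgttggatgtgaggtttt
Cacna1e-204, chr1:154700341-154700400, minus strand: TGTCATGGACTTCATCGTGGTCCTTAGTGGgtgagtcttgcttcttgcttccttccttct

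**Figure D3:**
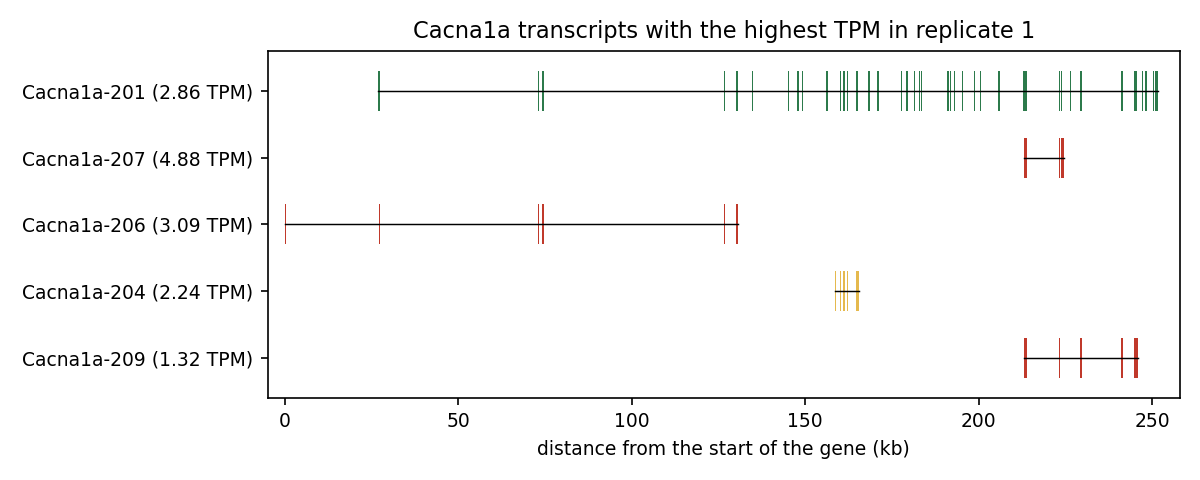
Exons of the 5 Cacna1a transcripts with the highest TPM in replicate 1, by distance from the start of the gene in kb, with the full-length protein-coding transcript in green, retained-intron transcripts in red and a processed transcript in yellow. Short exons are drawn at a fixed least width so that they show. Cacna1a-207 and Cacna1a-209 start together near 213 kb, Cacna1a-204 lies at 159 to 166 kb, and Cacna1a-206 runs from the start of the gene to 131 kb.

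A transcript table was used for replicate 1 only, but the effective length of each gene, the length by which its reads were divided, was given for each library. For Cacna1a it was 2426 bases in replicate 1 and 2363 bases in replicate 2, which is 0.306 and 0.298 of the 7926 bases of its coding transcript. For Cacna1e the same fraction was 0.729 and 0.818, for Cacna1c 0.770 and 0.645, and for Cacna1g 0.673 and 0.545. For Cacna1b it was 0.989 and 0.991, and for Cacna1i 0.990 in each library. Cacna1a thus had the lowest fraction of the 8 genes in each library.

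The other genes led with protein-coding transcripts, so 7 of 8 did. By posterior means 6 of 8 did, and by reads 8 of 8. The share of all genes that lead with a protein-coding transcript was not computed, so these counts are no result about the members. Cacna1e led with Cacna1e-203, 14921 bases, at 67.8% of its TPM and 92.5% of its reads, and 32.2% of its TPM lay in retained-intron transcripts. Cacna1c led with Cacna1c-207 at 69.9%, followed by the short processed transcript Cacna1c-218 at 16.3%. For Cacna1b, Cacna1b-202 held 95.2%, and all of the level was coding.

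Some splits between similar coding transcripts were uncertain. Cacna1d divided into Cacna1d-201 at 57.3% and Cacna1d-202 at 42.7%, both coding, with a posterior SD of 73.2 reads on the 513 of the first. Cacna1g led with Cacna1g-210 at only 35.9%, followed by the processed transcript Cacna1g-212 at 32.4%. The posterior mean gave Cacna1g-210 a share of 7.64% and Cacna1g-212 a share of 29.3%, so the lead then fell to a noncoding transcript. Cacna1h led with Cacna1h-205 at 74.6%, for which the posterior mean gave 16.4%. Cacna1i had reads in 1 coding transcript, Cacna1i-202.

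**Figure D4:**
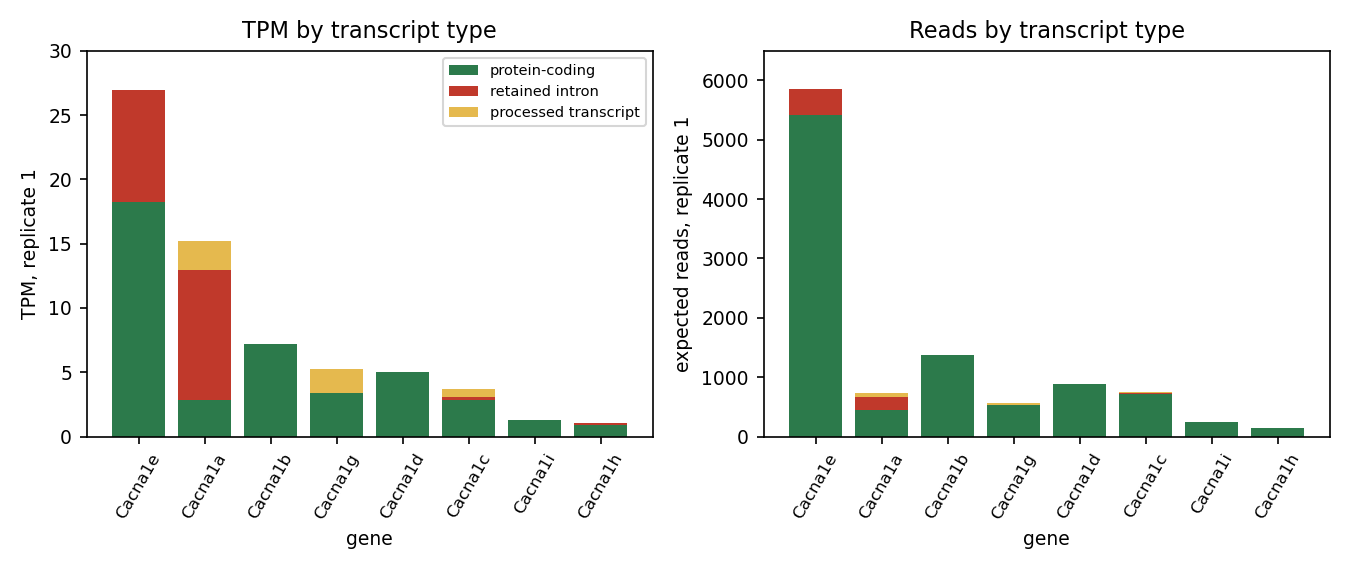
Stacked bars show TPM (left) and expected reads (right) of each gene in replicate 1, divided by annotated transcript type, with genes in order of mean TPM. The protein-coding part is 2.86 of 15.2 TPM for Cacna1a and 18.3 of 26.9 TPM for Cacna1e, and 448 of 737 and 5418 of 5858 reads.

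Counting only protein-coding transcripts in replicate 1, the 8 genes summed to 41.7 TPM, 63.6% of their full sum. Cacna1e stayed first at 18.3 TPM and Cacna1b came second at 7.20 TPM, followed by Cacna1d at 4.99 and Cacna1g at 3.39. Cacna1a and Cacna1c shared the next place at 2.86 TPM each, and Cacna1i and Cacna1h stood at 1.29 and 0.86 TPM. The share of Cav2 was 67.9%, that of Cav1 18.8% and that of Cav3 13.3%.

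A different scale, which could be had for each library, divided all reads of a gene, those of noncoding transcripts included, by the length of its leading coding transcript. It was chosen after the data were seen. On it Cacna1a stood at 4.70 and 6.47 TPM, beside 7.19 and 6.48 TPM for Cacna1b and 4.90 and 4.21 TPM for Cacna1d. The range of Cacna1a then overlapped that of Cacna1d, and its higher library stood just under the lower one of Cacna1b. Cacna1e, at 19.8 and 9.08 TPM on this scale, lay above the other 7 genes in each library. On both scales Cacna1e came first, and Cacna1a stood below Cacna1b.

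The libraries were next set against each other, replicate 1 over replicate 2, on CPM with library sizes scaled by TMM (trimmed mean of M-values) and 1 added. With 1 library on each side there is no replicate check, and the call is a difference of at least 2-fold at a mean CPM of 10 or more. Of the 7 members that reached this mean, 1 passed, Cacna1e, against 4.47% of 9189 genes. Of these genes 2.62% were higher in replicate 1, as Cacna1e was, and 1.85% were higher in replicate 2, as no member was. Cacna1h, at a mean of 8.22 CPM, was not tested at this limit. At a mean CPM of 1 or more, 1 of 8 members passed, again Cacna1e, against 10.4% of 14332 genes, of which 6.47% were higher in replicate 1 and 3.91% in replicate 2. Cacna1e had 251 CPM in replicate 1 and 115 CPM in replicate 2, a log2 ratio of 1.12. The ratio was 2.18 with a 95% exact counting interval of 2.09 to 2.28. Of the 9189 genes, 2.07% had a log2 ratio as high.

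The other members tested did not pass on this scale, and for Cacna1i that turned on the 1 CPM added. At 10.7 CPM in replicate 1 and 21.6 CPM in replicate 2, its ratio was 0.494 with a 95% exact counting interval of 0.424 to 0.575. With 1 CPM added its log2 ratio was -0.95, and with 0.1 CPM added it was -1.01 and past the limit. At 1 CPM added, 2.20% of genes had a log2 ratio as low. Cacna1c followed at 0.61, at 31.8 and 20.5 CPM, then Cacna1h at -0.61 and Cacna1a at -0.44. Cacna1b, Cacna1d and Cacna1g lay between 0.15 and 0.21. In all, 5 log2 ratios were positive and 3 negative, with a median of 0.16 against -0.02 for genes at 10 CPM or more. Scaling to spike-ins moved that median of all genes to 0.32 and the log2 ratio of Cacna1e from 1.12 to 1.47. This scaling left all 8 signs as they were. It also changed the split of 2-fold differences over all genes, of which 91.1% were then higher in replicate 1, against 58.6%. The log2 ratio of TPM with 1 TPM added, where effective lengths also enter, turned that of Cacna1g to -0.11.

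**Figure D5:**
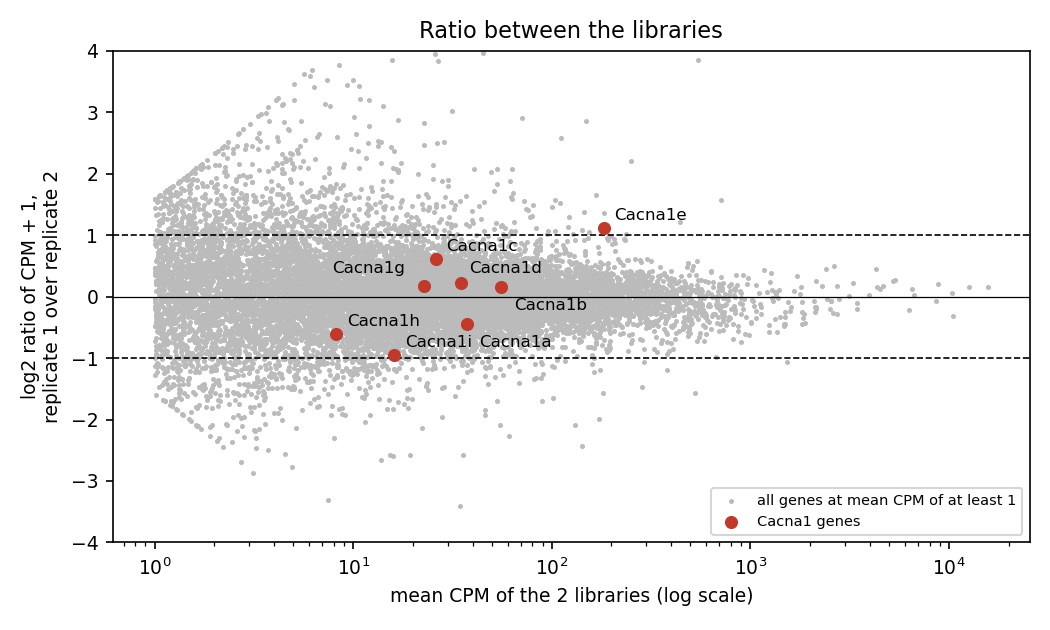
Each grey point is a gene at a mean CPM of 1 or more, placed by its mean CPM (log scale) and its log2 ratio of CPM + 1, replicate 1 over replicate 2, and dashed lines mark 2-fold. The 8 Cacna1 genes are in red, with Cacna1e at 1.12 above the upper line and Cacna1i at -0.95 just inside the lower line. 13 genes lie beyond the plotted range.

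An exact conditional binomial test on the reads of the libraries, two-sided and adjusted by the Benjamini-Hochberg method over 17816 genes, asks only whether the difference exceeds counting error. It passed 7 of 8 members at an adjusted p under 0.05, against 67.0% of all genes tested. Of the members 4 were higher in replicate 1, against 34.2% of genes, and 3 were higher in replicate 2, against 32.7%. Cacna1g was the exception, with an adjusted p of 0.057 by this exact test, a CPM ratio of 1.13 and an unadjusted 95% counting interval of 1.01 to 1.28. With only 8 members, and most of all genes past the test, this count is no result about the members. The test compares these libraries and not conditions. More genes differed than read counting alone would give. Whether the captured cells or separate preparations of 1 sample gave this was not tested.

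Markers of other cells differed between the pools alongside Cacna1e. Of the 17 GABAergic markers 11 reached 10 CPM, and 4 of those, Vip, Sst, Gad2 and Npy, were at least 2-fold higher in replicate 1. Vip differed most, at 4365 reads in replicate 1 and 1 read in replicate 2. The whole list summed to 6605 TPM in replicate 1 and 4033 TPM in replicate 2. Of 5 microglial markers at 10 CPM, 4 were at least 2-fold higher in replicate 1, and the 9 microglial markers summed to 165 and 58.3 TPM. For oligodendrocyte precursors 2 of 3 markers were, with sums of 40.2 and 23.7 TPM over 7.

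Most layer 5 markers went the other way. Of 9, 4 (Pcp4, Fezf2, Etv1 and Deptor) were at least 2-fold higher in replicate 2. Bcl11b and Crym were higher in replicate 1, at log2 ratios of 0.27 and 0.31. The layer 5 list summed to 2379 TPM in replicate 1 and 4893 TPM in replicate 2, of which Pcp4 alone was 2134 and 4468 TPM. Glutamatergic markers summed to 639 and 828 TPM, of which Nrgn alone was 335 and 521 TPM, with none of 10 beyond 2-fold. The 9 astrocyte markers summed to 628 and 740 TPM and the 9 oligodendrocyte markers to 611 and 778 TPM, with none of the 8 and 9 at 10 CPM beyond 2-fold. Endothelial markers, led by Itm2a, summed to 107 and 93.9 TPM, with none of 3 beyond 2-fold. Mural markers summed to 20.3 and 35.5 TPM, and 1 of 2 at 10 CPM, Vtn, was at least 2-fold higher in replicate 2. Acta2 of the same list, at a mean of 8.52 CPM, went the other way, with 391 reads in replicate 1 and 8 reads in replicate 2. Erythroid markers, led by Hba-a2, summed to 7.59 and 384 TPM, and all 3 at 10 CPM were at least 2-fold higher in replicate 2. No marker in these lists was at 0 in both libraries. The part of these cells in the values of Cacna1e, Cacna1i or any other member was not tested.

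The beta subunit genes summed to more than the 8 pore genes, and the alpha2delta genes to less, in each library. The 4 beta subunit genes, whose proteins bring alpha1 of Cav1 and Cav2 to the membrane, were all detected. They summed to 111 TPM in replicate 1 and 121 TPM in replicate 2. Cacnb4 led them at 67.2 and 79.0 TPM, more than any pore gene in either library. Of the 4 alpha2delta genes, whose proteins raise channel density at the surface, 3 were detected in replicate 1 and 2 in replicate 2, with sums of 47.2 and 53.4 TPM, led by Cacna2d1 at 23.3 and 27.4 TPM. Cacna2d4 had no reads in either library. None of the 6 auxiliary genes at 10 CPM or more lay beyond 2-fold. The leak channel gene Nalcn, a 4-repeat relative, stood at 8.67 and 10.7 TPM, near Cacna1b.

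Genes of release sites and channel regulation were read against the 4.47% of all genes beyond 2-fold. Of 11 active zone and release genes, 10 reached 10 CPM and 1 lay beyond 2-fold. This was Stx1a, a syntaxin that binds Cav2 channels, with 29.95 TPM in replicate 1, against 72.99 TPM in replicate 2. The highest of that list was Snap25 at 5388 and 6767 TPM. Of 15 regulators, 10 reached 10 CPM and 1 lay beyond 2-fold. This was Cabp1, a calcium-binding protein that changes channel inactivation, at 46.7 and 108 TPM.

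Channels that act downstream of calcium entry followed. Of 4 genes at 10 CPM among intracellular release channels, 1 lay beyond 2-fold. This was Ryr1, a ryanodine receptor, at 0.59 and 1.49 TPM, while Itpr1, an IP3 receptor, led at 47.7 and 40.0 TPM. Among 4 calcium-activated potassium channel genes Kcnma1, the BK channel, led at 45.0 and 46.4 TPM, and neither of the 2 at 10 CPM lay beyond 2-fold. For comparison, the 9 sodium channel pore genes summed to 191 and 193 TPM, led by Scn1a at 83.2 and 95.8 TPM, against 65.6 and 56.2 TPM for the 8 calcium channel pore genes. Rbfox1 led the 7 splicing regulators at 81.6 and 92.7 TPM, with none of 6 at 10 CPM beyond 2-fold.

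The uncertainty of assigning reads was small at the level of the gene. The posterior SD of the gene count was at most 4.42 reads for any member in either library. The 8 genes lie on 8 chromosomes and span 59.5 to 609 kb. Other annotated genes overlap 5 of them. The one with the most reads is Dcp1b, on the opposite strand and overlapping the span of Cacna1c, with 200 and 280 reads in all. The sources used here do not say whether reads were counted by strand, so reads in regions shared with opposite-strand genes could not be told apart.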

How the data were processed

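Gene expression was measured in 2 libraries of 1 group. Laser capture of the cells and a Smart-seq library procedure are named, per the labels' protocols, which mention no molecular identifiers. The gene table that the authors deposited for each library holds the expected count (estimated reads, not normalized), TPM scaled over all features including spike-ins, FPKM, a posterior SD and an effective length. For replicate 1 a deposited transcript table also gives the percent of the TPM of a gene that each transcript holds. Values came from transcriptome alignments on mm10 with GENCODE M4, per the deposited text files that describe them. Which aligner and quantifier made them, and whether strand was used, is not given in the sources used here.

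Names, transcript types and positions were looked up in GENCODE M21 (GRCm38), which holds 42462 of the 43346 gene identifiers. Of 83 member transcripts, 81 had the same length there, and the exceptions were those of Cacna1d. The tables also list 97 spike-in features and 26248 numeric entries, which were left out of library sizes. The total was 24171434 estimated reads for replicate 1 and 27946180 for replicate 2. After rounding the expected counts, TMM factors were computed with edgeR 4.0.16 under R 4.3.3, and DESeq2 1.42.0 gave size factors for an alternative. The pseudocount was 1 CPM. Intervals are 95% exact and, like the floor of 3 reads, cover counting error only. The exact conditional binomial test used genes with at least 10 reads in all. The ratio, its call and this test were checked on simulated data. The simulated counts varied by counting error only, so the check says nothing of other variation between libraries. Other steps used scipy 1.17.1, numpy 2.4.6 and pandas 2.3.3 in Python 3.11.15.

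The members, the lists of partners and markers and the rules were chosen with earlier results of these data known. Named genes are the 8 members, Cacna1s and Cacna1f, and the leading transcripts. For most lists the highest gene and each gene beyond 2-fold at 10 CPM or more were named too. Microglial and oligodendrocyte precursor markers were given as counts and sums only, and of the erythroid markers only the highest was named. Further genes were named after their values were seen. The highest gene of the regulator list is not reported here. Pore windows were found by translating the coding sequence and searching it for the loop pattern. With 2 libraries no likeness of pattern across samples was computed. Alternatives were other scalings, pseudocounts, filters, units and transcript sets.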

Additional observations from a re-analysis of the deposited data

How the results depend on the processing

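The share of Cav1 in the summed level of the 8 genes was 12.9% by TPM, 16.0% by reads with no length correction, 17.1% by reads per length of the leading coding transcript and 18.8% by protein-coding TPM of replicate 1. That of Cav2 was 72.2% by TPM, 66.3% by reads per length of the leading coding transcript and 67.9% by protein-coding TPM. These last 2 scales were chosen after seeing the data. By reads 3 of the 8 genes kept their place in the order, and on the other 2 scales 4 did. The median percentile of the 8 genes was 46.2 instead of 60.5 among coding genes with TPM above 0, since fewer genes are then ranked below them. The number of members beyond 2-fold was 2 of 7 with a pseudocount of 0.1, which added Cacna1i at -1.01, against 4.94% of all genes. It was 1 under the other settings tried, against 4.02% to 10.4% of all genes. Over all genes the number was 411 (4.47% of 9189), against 666 (7.22% of 9219) with spike-in totals. It was 1487 (10.4% of 14332) at a mean CPM of 1 or more and 1824 (8.32% of 21926) with no filter. The protein-coding share of the summed TPM was 63.6%, against 61.9% by posterior means and 92.5% by reads.

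Without replicate 1 Cacna1a came first and Cacna1e second, and the posterior mean gave the same order. With 1 library left out, 6 to 8 genes kept their place. A mean of 2 values cannot move by more than 1 SD when either is left out, so this says nothing of stability for levels and shares. A ratio between libraries has no value without one of them, so none was computed. No paired analysis was possible because there is 1 group. Among values of single genes and medians of lists under all alternatives, 208 were labelled as unchanged and 66 as moved. The 1 that passed the 2-fold limit was that of Cacna1i. Levels were judged against their spread, and log2 ratios by their side of that limit. Places in the order and transcript shares of replicate 1 have no spread over libraries and were judged by other rules. The 208 include levels, shares, percentiles and medians with 1 library left out, which could not move by more than 1 SD. The 208 is thus no measure of stability. At low counts (147 reads for Cacna1h in replicate 1) counting error alone gave an interval of 0.915 to 1.27 TPM.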
